A study of Mus musculus with 15 samples.

Results

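The genes described here are 10 transcription factor genes of the early nervous system, Sox1, Sox3, Sox4, Sox11, Sox21, Pax3, Pax6, Pax7, Irx3 and Olig3. They were chosen by name, with earlier results of these data known. All 10 were found among the 24451 gene rows of the count table. Their levels were measured by RNA sequencing in ES-R1 mouse embryonic stem cells, which the labels trace to the inner cell mass, grown without serum in DMEM plus N2 and B27. The 15 libraries form 5 groups of 3, all transfected with siRNA and sampled in a differentiation of 4 days: Vprbp siRNA with Activin A at 25 ng/ml, control siRNA with the same dose of Activin A, control siRNA with the inhibitor SB, Vprbp siRNA with no addition and control siRNA with no addition. The inhibitor is SB431524 in the sample titles and SB431542 in the series text. The labels name neither its dose nor the siRNA sequences. No SB group had Vprbp siRNA. Whether replicates came from separate cultures is not stated, and the p-values therefore measure a spread between libraries that may be only technical.

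SOX proteins bind DNA through an HMG box. In the vertebrate neural plate the SoxB1 factors (Sox1, Sox2, Sox3) keep cells as dividing progenitors, the SoxB2 factor Sox21 counteracts them and favours exit towards neurons, and the SoxC factors Sox4 and Sox11 act in differentiating neurons. Pax6, Irx3, Pax3, Pax7 and Olig3 divide the neural tube into domains along its dorsal to ventral axis, with Pax3, Pax7 and Olig3 dorsal and Pax6 and Irx3 reaching further ventrally. Activin and Nodal signal through the receptor ALK4 and Smad2/3 and are known to hold back neural differentiation of pluripotent cells, while SB blocks ALK4 and its relatives.

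Libraries held 11146183 to 15527245 counts assigned to genes. With none counted, the upper limit (3 counts) was 0.196 to 0.271 CPM, which are counts scaled to a common library size with TMM factors. This limit covers counting error only. Vprbp was partly reduced, with no addition at 122.2 ± 8.91 CPM with Vprbp siRNA against 171 ± 3.60 CPM with control siRNA (SD, n = 3 each). With Activin Vprbp was at 138.3 ± 9.23 CPM against 179.1 ± 4.41 CPM. The Nodal antagonist gene Lefty1 was at 254.7 ± 16.7 CPM with Activin, 1.56 ± 0.220 CPM with SB and 81.8 ± 37.9 CPM with no addition, all with control siRNA. The stem cell factor genes Pou5f1 and Nanog were present in every library, at 333 to 825 CPM and 232 to 471 CPM. Replicate 3 of Vprbp siRNA and replicate 3 of control siRNA lay closest to the SB group among untreated libraries on principal component 1, at 7.27 and 15.6, and component 2 set off replicate 1 of the Vprbp siRNA cells given Activin, at -35.0. Results that change without these 3 libraries are given with both values.

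Sequence just upstream of the RefSeq start site (build GRCm38.p6) was matched for 8 of the 10 genes, not for Pax3 and Sox3. In GENCODE M21 the windows of Irx3 and Pax7 and the second window of Pax6 lie wholly within exons, as do 224 of 250 bases of the Sox1 window, while the 3 windows shown hold 0 exon bases. Windows of 250 bases are shown for Pax6 and Sox21, which had opposite responses to Activin and SB, and for Sox11, which responded to SB and had no called response to Activin. Capitals mark CAGAC or its reverse complement GTCTG, the core of the element that Smad3 binds.
Pax6, chr2:105668646-105668895, + strand: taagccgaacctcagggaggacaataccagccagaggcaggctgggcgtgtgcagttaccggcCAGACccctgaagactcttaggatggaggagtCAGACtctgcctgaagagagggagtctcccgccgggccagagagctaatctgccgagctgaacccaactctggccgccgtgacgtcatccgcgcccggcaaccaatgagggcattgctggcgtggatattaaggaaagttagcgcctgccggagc
Sox21, chr14:118237031-118237280, - strand: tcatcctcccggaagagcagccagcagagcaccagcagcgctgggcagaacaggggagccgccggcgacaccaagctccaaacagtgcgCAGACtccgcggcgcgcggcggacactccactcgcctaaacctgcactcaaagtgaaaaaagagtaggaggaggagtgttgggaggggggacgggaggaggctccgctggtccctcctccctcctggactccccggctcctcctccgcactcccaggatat
Sox11, chr12:27342719-27342968, - strand: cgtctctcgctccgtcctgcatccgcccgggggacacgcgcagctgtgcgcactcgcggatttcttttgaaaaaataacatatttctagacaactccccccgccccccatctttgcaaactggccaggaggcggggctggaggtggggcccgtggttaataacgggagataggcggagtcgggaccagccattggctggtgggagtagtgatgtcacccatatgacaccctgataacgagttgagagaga

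The letters CAGAC, on either strand, stood in the windows of 5 of 8 genes (Irx3, Pax6, Pax7, Sox21 and Sox4, the Irx3 and Pax7 matches being in exons), and 42.2% of all 32851 windows of this length in the RefSeq table held them. The first Pax6 window held them at 187 and 155 bases before the start site and the Sox21 window at 161. The Sox4 window, not shown, held them at 40 bases, and Sox4, like Sox11, was called with SB and not with Activin. The Sox1 window lacked them, and Sox1 was called with both. The octamer ATGCAAAT, bound by POU factors, stood in none of the 8 windows and in 1.60% of all windows, and the FOXH1-type letters AATNCACA in none of the 8 and in 3.18% of all. The letters CCAAT stood in 5 of 8 (33.8% of all windows), TATAAA in 1 (12.4%) and the SOX-type letters ACAAAG in 1 (16.5%) and ACAATG in 0 (10.7%). Both strands were searched, a gene with several windows counted if any matched, and patterns may overlap at their ends. A match describes the letters and does not show that a factor binds there.

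**Figure D1:**
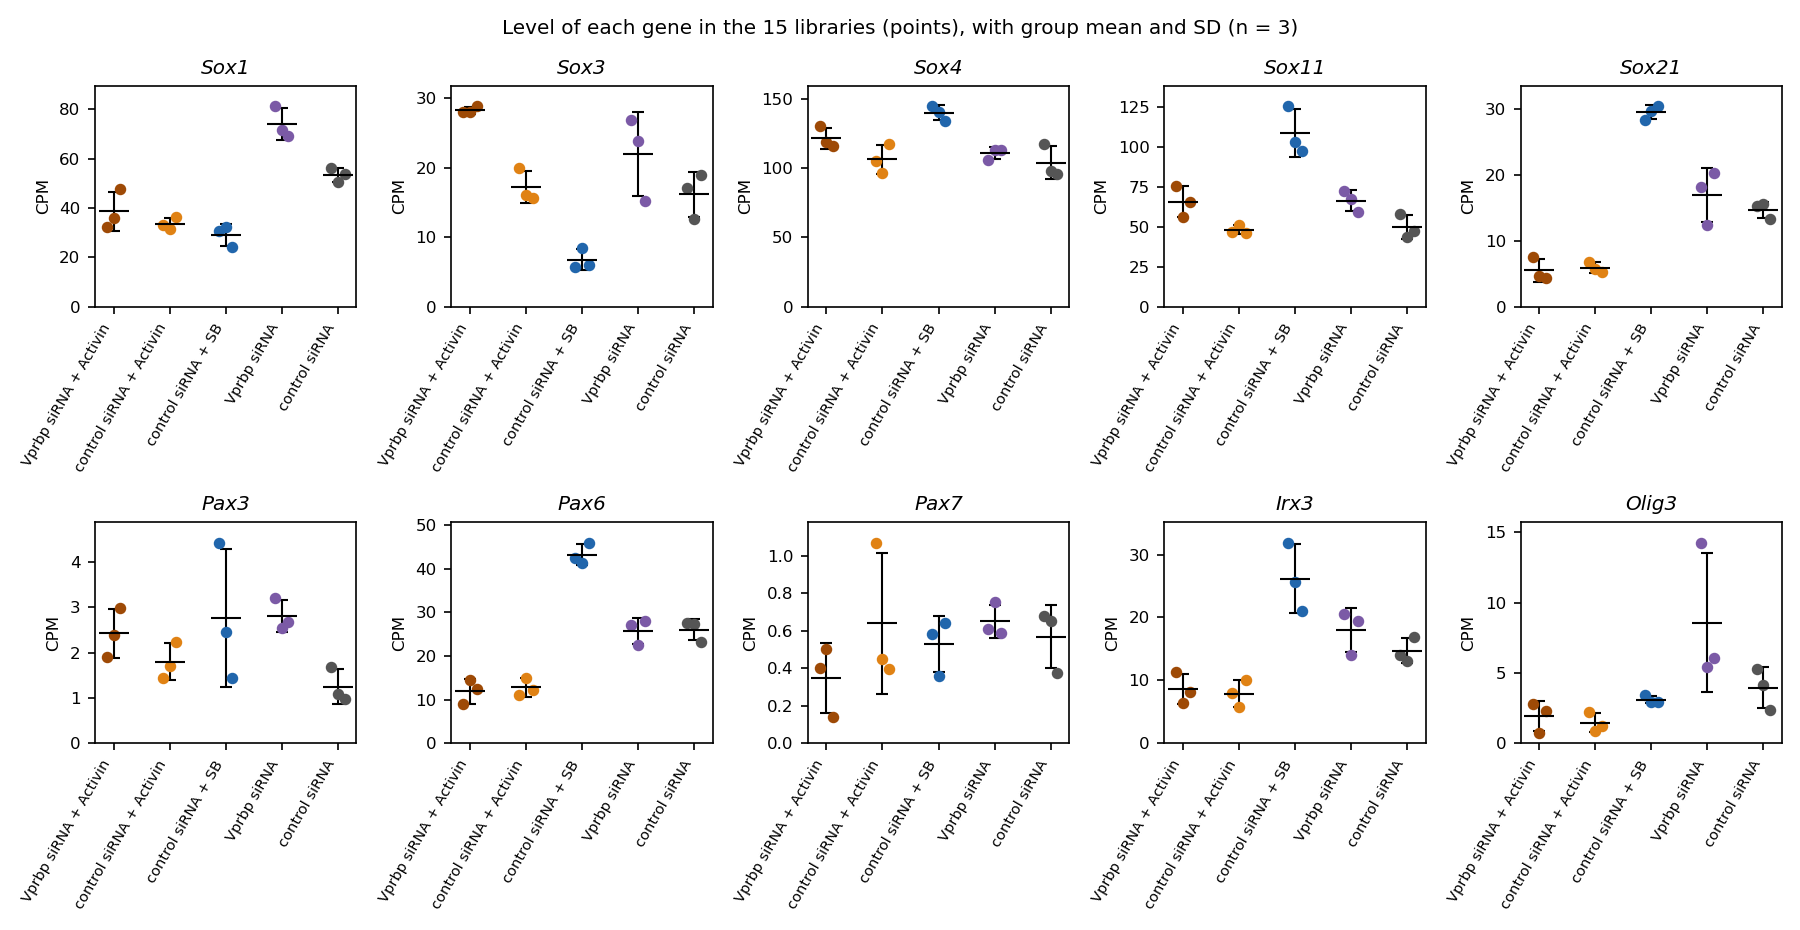
Level of each of the 10 genes (CPM, linear axis from 0) in every library. Points are libraries, bars the group mean and SD (n = 3). Pax6, Sox21 and Irx3 are highest with SB and lowest in both Activin groups, while Sox1 is highest in both groups with no addition and Sox3 is lowest with SB.

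With SB, most of these genes rose in control siRNA cells, with the SoxB1 pair going the other way. Sox4, Sox11, Sox21, Pax3, Pax6 and Irx3 rose, by 0.43 to 1.13 on the log2 scale, and Sox1 and Sox3 fell. In the test used throughout, edgeR's quasi-likelihood F-test, Benjamini-Hochberg adjusted over all 14600 genes tested with a threshold of 0.05, 6 of 9 tested members were called higher and 2 lower, against 11.2% and 11.3% of all genes. Because the members were chosen with earlier results of these data known, the shares here and in the comparisons below carry no test. Pax7 was too low to be tested. The median log2 fold change was 0.73 over the 9 members tested and 0 over all genes.

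With Activin, again in control siRNA cells, Sox1, Sox21, Pax6 and Irx3 fell and none of the 9 tested members rose. The background was 1.88% of genes called lower and 2.95% called higher. Sox3, Sox4, Sox11, Pax3 and Olig3 were not called. The Activin and SB comparisons share the 3 untreated control siRNA libraries, so their values are given side by side below and the agreement of signs between them is not counted. In bulk RNA, fewer cells of a type and less RNA per cell cannot be told apart.

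Set directly against SB, Activin gave lower levels of Sox4, Sox11, Sox21, Pax6 and Irx3, and a higher level of Sox3, in control siRNA cells. This is 5 of 9 tested members called lower and 1 called higher, where the whole table had 19.0% of genes in each direction. Sox1, Pax3 and Olig3 were not called between these groups.

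**Figure D2:**
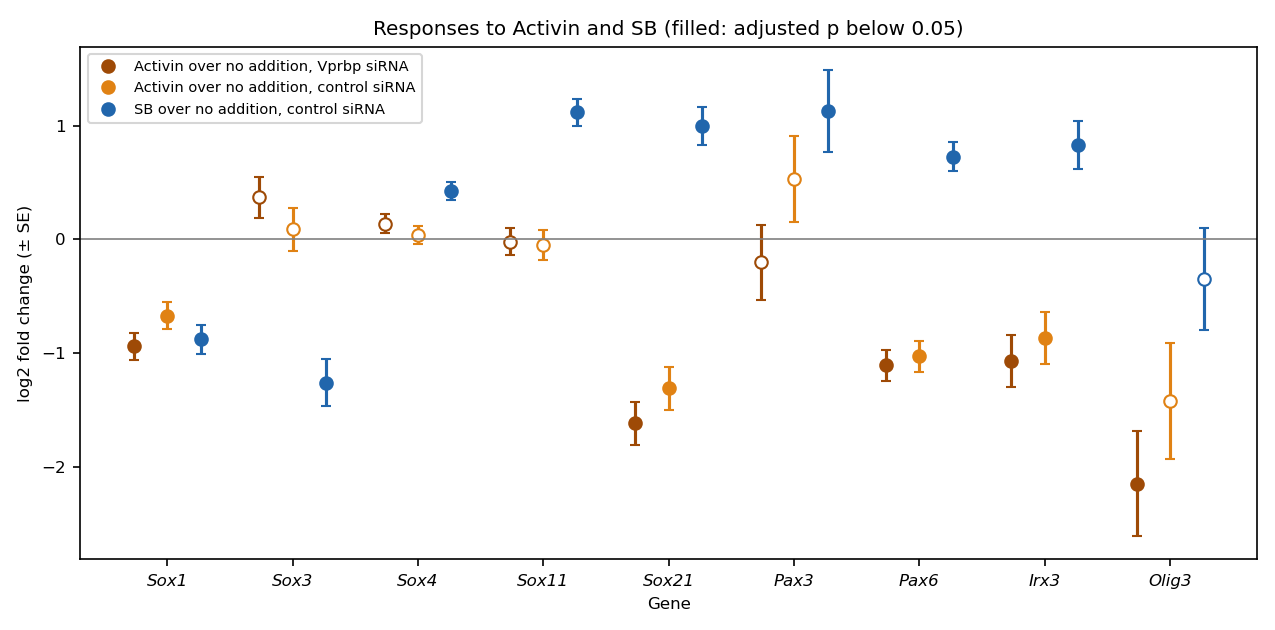
Log2 fold change over the matching group with no addition (points, ± SE) for the 9 tested genes: Activin with Vprbp siRNA, Activin with control siRNA and SB with control siRNA. Filled points passed an adjusted p of 0.05. Sox1 is below 0 in all 3 responses, and Sox21, Pax6 and Irx3 are below 0 with Activin and above 0 with SB.

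Sox1 (ENSMUSG00000096014, chromosome 8, 12395295 to 12400126, GRCm38), a single-exon SoxB1 gene and an early marker of the committed neural plate, was highest without either addition. In control siRNA cells it was at 33.1, 31.5 and 36.3 CPM with Activin, at 30.8, 32.5 and 24.1 CPM with SB and at 56.2, 50.6 and 53.6 CPM with no addition. Every treated library lay below every untreated one, and the Activin and SB ranges overlapped. The log2 fold change was -0.67 ± 0.12 with Activin (SE, edgeR adjusted p = 0.0049) and -0.88 ± 0.13 with SB (edgeR adjusted p = 5.3e-05). Activin minus SB was 0.21 ± 0.13 (edgeR adjusted p = 0.21).

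Sox3 (ENSMUSG00000045179, chromosome X, 60891366 to 60893430), the X-linked SoxB1 gene, fell with SB and had similar levels with and without Activin. Control siRNA cells had 19.9, 16.1 and 15.7 CPM with Activin, 5.74, 8.465 and 6.01 CPM with SB, and 17.0, 12.6 and 18.9 CPM with no addition. The SB libraries lay below all others, and the Activin range overlapped the untreated one. The log2 fold change was -1.26 ± 0.21 with SB (edgeR adjusted p = 0.00031) and 0.09 ± 0.19 with Activin (edgeR adjusted p = 0.84). Activin minus SB was 1.35 ± 0.21 (edgeR adjusted p = 8.2e-05). Sox2, the third SoxB1 gene and not one of the 10, also fell with SB, to 617 ± 4.84 CPM against 823.2 ± 139 CPM with no addition (-0.42 ± 0.09, edgeR adjusted p = 0.0028). Sox2 also belongs to the pluripotency list below. Its call is counted there and in the neural plate and further Sox lists. The lists share other genes too, among them Sox7, Sox10 and Irx5, whose SB calls are counted in each list that holds them.

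Sox21 (ENSMUSG00000061517, chromosome 14, 118233232 to 118237030), the SoxB2 repressor whose upstream window is shown above, moved in opposite directions. Its levels in control siRNA cells were 6.81, 5.78 and 5.22 CPM with Activin, 28.35, 29.7 and 30.4 CPM with SB, and 15.3, 15.5 and 13.3 CPM with no addition. The 3 groups did not overlap. The log2 fold change was -1.31 ± 0.19 with Activin (edgeR adjusted p = 0.00053) and 1.00 ± 0.17 with SB (edgeR adjusted p = 0.00017). Activin minus SB was -2.31 ± 0.18 (edgeR adjusted p = 1.1e-08), a level 4.97 times as high with SB, the largest such difference among the 9 members tested.

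The SoxC genes Sox4 and Sox11 were raised by SB and were not called with Activin. Sox11 (ENSMUSG00000063632, chromosome 12, 27334264 to 27342574) had 46.7, 51.4 and 46.35 CPM with Activin, 125.4, 103.2 and 97.3 CPM with SB, and 58.1, 43.8 and 47.6 CPM with no addition, all with control siRNA. SB libraries lay above all others, and the Activin libraries lay within the untreated range. The log2 fold change of Sox11 was 1.12 ± 0.12 with SB (edgeR adjusted p = 3.8e-06) and -0.05 ± 0.13 with Activin (edgeR adjusted p = 0.86).

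Sox4 (ENSMUSG00000076431, chromosome 13, 28948919 to 28953713) showed a smaller rise. It had 104.8, 96.6 and 117.6 CPM with Activin, 144.7, 140.7 and 134.0 CPM with SB, and 117.7, 97.9 and 95.9 CPM with no addition. Again the SB libraries stood above both other groups, which overlapped. The rise with SB was 0.43 ± 0.08 on the log2 scale (edgeR adjusted p = 0.00063), and the Activin value was 0.04 ± 0.08 (edgeR adjusted p = 0.85). Of the 50-base stretches of Sox4 transcripts, 54.1% also occur in the opposite-strand noncoding gene Gm26735, which has no row in the table. No source used here gives the strand setting, so reads of both genes may be counted as Sox4, and the same holds for 17.8% of Sox21 (Gm4675). Of the Irx3 exon bases, 1487 lie within the opposite-strand gene Irx3os, which has no row. All exon bases of Sox1 lie within the same-strand noncoding locus Sox1ot, which has no row either. None of the 10 genes shared a 50-base stretch with another of the 10.

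Pax6 (ENSMUSG00000027168, chromosome 2, 105668900 to 105697364), a paired-box factor of the forebrain, eye and ventral spinal cord, fell with Activin and rose with SB. The control siRNA cells had 11.0, 15.1 and 12.3 CPM with Activin, 42.45, 41.4 and 46.0 CPM with SB, and 27.5, 27.3 and 23.3 CPM with no addition. No library of one group reached the range of another. The log2 fold change was -1.03 ± 0.14 with Activin (edgeR adjusted p = 0.00032) and 0.73 ± 0.13 with SB (edgeR adjusted p = 0.00037). Activin minus SB was -1.76 ± 0.14 (edgeR adjusted p = 8.9e-09), or 3.4 times as high with SB. The antisense gene Pax6os1, which overlaps 150 of its exon bases, had 5 counts over all 15 libraries.

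Irx3 (ENSMUSG00000031734, chromosome 8, 91798525 to 91802067), an Iroquois homeobox gene that sets domain borders in the neural tube, followed the same directions with wider spread. It had 7.955, 5.69 and 10.05 CPM with Activin, 31.9, 25.6 and 21.0 CPM with SB, and 14.0, 13.1 and 16.9 CPM with no addition. These 3 groups also did not overlap. The rise with SB was 0.83 ± 0.21 (edgeR adjusted p = 0.0091). The fall with Activin was -0.87 ± 0.23 (edgeR adjusted p = 0.042), and its call was lost without filtering (edgeR adjusted p = 0.068). It was also lost without Activin replicate 1 (edgeR adjusted p = 0.13) or 2 (0.14), without untreated control replicate 1 (0.065), 2 (0.062) or 3 (0.19), and without the 3 libraries that lay apart (-0.76, edgeR adjusted p = 0.10). Over all alternatives its adjusted p by edgeR or DESeq2 was 0.0031 to 0.19.

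Olig3 (ENSMUSG00000045591, chromosome 10, 19356533 to 19358604), a bHLH factor of dorsal progenitors, was low. Control siRNA cells had 2.22, 0.903 and 1.26 CPM with Activin, 3.42, 2.97 and 2.935 CPM with SB, and 5.29, 4.13 and 2.40 CPM with no addition. The Activin libraries lay below all others, whereas the SB libraries lay within the untreated range. The log2 fold change with Activin was -1.42 ± 0.51 and did not pass (edgeR adjusted p = 0.13), although it did in a fit of only the groups compared (edgeR adjusted p = 0.035) and by DESeq2 (adjusted p = 0.026), within 0.013 to 0.31 over all alternatives. With SB the log2 fold change was -0.35 ± 0.45 (edgeR adjusted p = 0.65).

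Pax3 and Pax7, paralogs of the dorsal neural tube, neural crest and somite, had low levels in all groups. Pax3 (ENSMUSG00000004872, chromosome 1, 78101267 to 78197134) had 1.45, 1.72 and 2.25 CPM with Activin, 4.43, 2.46 and 1.43 CPM with SB, and 1.70, 1.09 and 0.974 CPM with no addition. One SB library stood far above the other two, and 1 lay inside the untreated range. Its rise with SB, 1.13 ± 0.36 (edgeR adjusted p = 0.026), was 0.62 without SB replicate 1 (edgeR adjusted p = 0.26), 1.04 without untreated control replicate 2 (edgeR adjusted p = 0.090) and 0.98 without replicate 3 (edgeR adjusted p = 0.077). Without the 3 libraries that lay apart it was 0.98 (edgeR adjusted p = 0.052), and in a fit of only the groups compared the call was also lost (edgeR adjusted p = 0.066), with adjusted p from 0.0046 to 0.26 over all alternatives. Pax7 (ENSMUSG00000028736, chromosome 4, 139737062 to 139833528) had 2 to 14 counts per library, 0.139 to 1.07 CPM. It failed the filter on low counts, and its groups overlapped in each comparison except Activin in Vprbp siRNA cells. There it had 0.399, 0.5055 and 0.139 CPM with Activin and 0.611, 0.751 and 0.589 CPM with no addition, without overlap and without a test.

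Because Pax3 also marks neural crest and somite, markers of both were measured. The summed level of 12 neural crest genes was 75.6 to 88.5 CPM with Activin, 79.8 to 93.3 CPM with SB and 60.4 to 62.5 CPM with no addition in control siRNA cells. Within these sums the single gene Foxd3 was at 30.7 ± 4.37, 2.355 ± 0.908 and 9.585 ± 4.14 CPM, in the same order of groups. Among these 12 genes 1 rose with Activin, Foxd3 (1.67 ± 0.27), and 7 rose with SB, among them Ets1 (0.83 ± 0.15) and Snai1 (1.25 ± 0.23), and 2 fell, Sox10 (-1.31 ± 0.20) and Foxd3 (-2.03 ± 0.36). The 12 somite and paraxial mesoderm genes summed to 89.2 to 117 CPM with Activin, 45.2 to 62.9 CPM with SB and 101 to 125 CPM with no addition. Most of each sum was the single gene Tcf15, at 94.8 ± 13.1, 40.2 ± 9.60 and 101.7 ± 13.6 CPM in these groups. Msgn1, Meox2 and Myf5 were at 0 counts in the SB group. Of the 8 genes of this list that could be tested, Foxc1 rose (1.16 ± 0.33) and Tcf15 fell (-1.34 ± 0.15) with SB. Their part in the Pax3 result was not tested.

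Activin was also compared with no addition in Vprbp siRNA cells, where neither group is shared with the comparisons above. Sox1, Sox21, Pax6, Irx3 and Olig3 fell, and none of the 9 tested members rose. That is 5 of 9 called lower, against 2.47% of all genes, with 3.65% of all genes called higher. Sox21 had 7.58, 4.69 and 4.37 CPM with Activin and 18.1, 12.5 and 20.3 CPM with no addition (-1.62 ± 0.19, edgeR adjusted p = 5.9e-05). Pax6 had 8.94, 14.5 and 12.35 CPM against 27.0, 22.5 and 27.9 CPM (-1.11 ± 0.14, edgeR adjusted p = 0.00012), and Sox1 had 32.3, 36.0 and 47.5 CPM against 81.3, 71.75 and 69.2 CPM (-0.94 ± 0.12, edgeR adjusted p = 0.00018). In these genes no Activin library reached the untreated range. The 11 endoderm genes summed to 67.1 to 210 CPM over the Vprbp siRNA libraries with Activin, against 72.4 to 91.0 CPM with no addition, with Cer1 at 2.775 to 51.3 CPM and Sox17 at 2.57 to 21.6 CPM within the Activin group. The SDs of Cer1 and Sox17 there, 27.1 and 10.8 CPM, exceeded their means of 20.06 and 9.05 CPM. Without replicate 1 of this group, the library set off on component 2, the same contrast called 5 members lower. The part of this spread in the contrasts that use the group was not tested.

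Irx3 and Olig3 fell with less certainty in the Vprbp siRNA cells. Irx3 was at 11.3, 6.43 and 8.185 CPM with Activin and 20.6, 14.05 and 19.4 CPM with no addition (-1.07 ± 0.23, edgeR adjusted p = 0.010). That call was lost without Activin replicate 2 (edgeR adjusted p = 0.055) and without untreated replicate 3 (edgeR adjusted p = 0.058), with 8.8e-05 to 0.058 over all alternatives. Olig3 was at 2.79, 0.722 and 2.29 CPM with Activin and 14.3, 5.41 and 6.085 CPM with no addition (-2.15 ± 0.46, edgeR adjusted p = 0.013). One untreated library stood far above the other two. Without it the log2 fold change was -1.57 (edgeR adjusted p = 0.034), and the call was lost in a fit of only these groups (edgeR adjusted p = 0.11; 3.5e-05 to 0.11 over all alternatives).

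The Activin responses under the 2 siRNAs were compared directly as an interaction. By edgeR's quasi-likelihood test 0 of 9 members and 0 of 14600 genes (0%) were called, and DESeq2 likewise called 0 of the members. At an unadjusted p under 0.05 there were 0 of 9 members, against 3.54% of all genes. For Sox1 the response in Vprbp siRNA minus that in control siRNA cells was -0.27 ± 0.17 (95% interval -0.64 to 0.10), for Sox21 -0.31 ± 0.27 (-0.88 to 0.25) and for Pax6 -0.08 ± 0.20 (-0.50 to 0.35). The interval was widest for Olig3, from -2.24 to 0.78. These intervals bound how far the responses may differ and do not show that they were equal.

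Vprbp siRNA against control siRNA called none of these genes at either Activin level, although several libraries were separated. With no addition, 0 of 9 members passed by edgeR's quasi-likelihood test, where 0.0411% of all genes did, and DESeq2 also called 0 members. At an unadjusted p under 0.05 there were 5 of 9 members, against 8.16% of all genes. In Sox1, Sox11, Pax3 and Olig3, 4 of 9, every Vprbp siRNA library lay above every control siRNA library, as did 6.64% of all genes. Since these genes share libraries and were chosen with results known, the shares carry no test.

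In values, Sox1 was at 81.3, 71.75 and 69.2 CPM with Vprbp siRNA and 56.2, 50.6 and 53.6 CPM with control siRNA, a log2 fold change of 0.47 ± 0.12 (95% interval 0.22 to 0.72, edgeR adjusted p = 0.29). Sox11 was at 72.1, 67.6 and 59.2 CPM against 58.1, 43.8 and 47.6 CPM (0.41 ± 0.12, edgeR adjusted p = 0.45). Pax3 was at 3.21, 2.55 and 2.68 CPM against 1.70, 1.09 and 0.974 CPM (1.15 ± 0.36, edgeR adjusted p = 0.45). Pax6 lay at the other end, with overlapping ranges and a difference of -0.01 ± 0.13 (95% interval -0.29 to 0.27, edgeR adjusted p = 0.99). Sox3 had 26.9, 23.9 and 15.2 CPM against 17.0, 12.6 and 18.9 CPM (0.44 ± 0.19, edgeR adjusted p = 0.57), and without the 3 libraries that lay apart it was called higher (0.77, edgeR adjusted p = 0.012, against 0.012 to 0.99 over all alternatives). Same-numbered libraries of these groups deviated together, and with the replicate number as a block still 0 members were called, while the number of all genes called was 18 in place of 6.

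With Activin present, Sox3 had the smallest p of the 9 tested members in the same siRNA contrast. Its levels were 28.0, 27.95 and 28.9 CPM with Vprbp siRNA and 19.9, 16.1 and 15.7 CPM with control siRNA, without overlap. The difference was 0.72 ± 0.19 (95% interval 0.32 to 1.11) and did not pass (edgeR adjusted p = 0.19). It did pass in a fit of only these groups (edgeR adjusted p = 0.016), by DESeq2 (adjusted p = 0.031) and without the 3 libraries that lay apart (0.73, edgeR adjusted p = 0.0061), and over all alternatives its adjusted p was 0.0061 to 0.48. Sox11 was at 75.4, 55.9 and 65.3 CPM against 46.7, 51.4 and 46.35 CPM, likewise without overlap (0.44 ± 0.12, edgeR adjusted p = 0.21). By edgeR 0 of 9 members were called, against 0.0411% of all genes, and DESeq2 called 1, Sox3. At an unadjusted p under 0.05 there were 3 of 9 members against 10.5% of all genes, and 2 of 9 had ranges wholly above, against 8.38% of all genes.

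**Figure D3:**
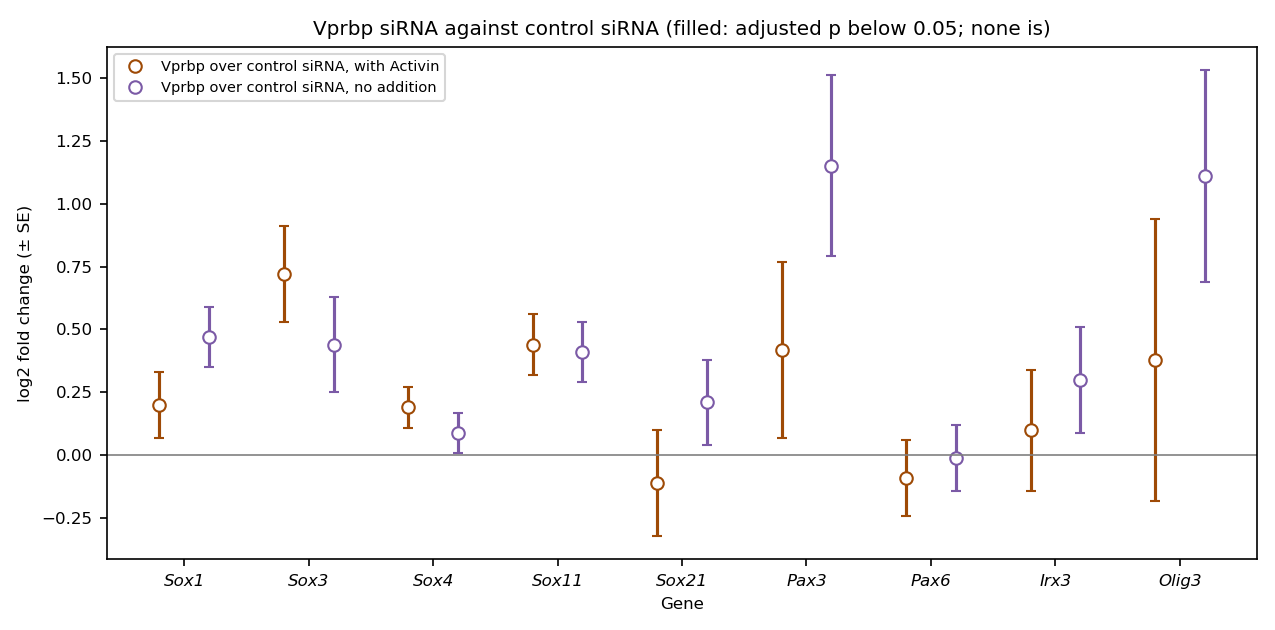
Log2 fold change of Vprbp siRNA over control siRNA (points, ± SE) for the 9 tested genes, with Activin and with no addition. All points are open because none passed an adjusted p of 0.05, and in each contrast the Pax6 value, -0.09 with Activin and -0.01 with no addition, lies nearest 0.

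Levels were set side by side per length of annotated exon (GENCODE M21, CPM per kb, n = 3). Sox4 was first in all 5 groups, at 22.2 ± 2.20 with Activin, 29.2 ± 1.13 with SB and 21.7 ± 2.51 CPM per kb with no addition in control siRNA cells, and Pax3 and Pax7 were last in all 5. With no addition the next were Sox1 (11.1 ± 0.578), Sox3 (7.83 ± 1.56), Sox11 (6.00 ± 0.890), Irx3 (5.32 ± 0.720), Sox21 (3.87 ± 0.329), Pax6 (2.23 ± 0.203) and Olig3 (1.90 ± 0.703) CPM per kb. The SDs of Sox3 and Sox11, of Sox11 and Irx3, and of Pax6 and Olig3 reach each other, so the order within these pairs is not set. The same holds with SB for Sox11 and Irx3, Irx3 and Sox21, and Pax6 and Sox3. With Activin it holds for Sox3 and Sox1, and for Pax6 and Olig3 (0.704 ± 0.328). With SB, Sox11 (13.1 ± 1.78), Irx3 (9.47 ± 1.99) and Sox21 (7.76 ± 0.277) came directly after Sox4, ahead of Sox1 (6.03 ± 0.923), Pax6 (3.70 ± 0.209) and Sox3 (3.26 ± 0.726). With Activin, Sox3 (8.34 ± 1.13) and Sox1 (6.96 ± 0.504) followed Sox4. Sox21 (1.56 ± 0.212) and Pax6 (1.09 ± 0.177) held ranks 6 and 7 there, the same ranks as with no addition. Exon lengths merge all annotated isoforms, 11.7 kb for Pax6, which lowers the value of genes with many isoforms.

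**Figure D4:**
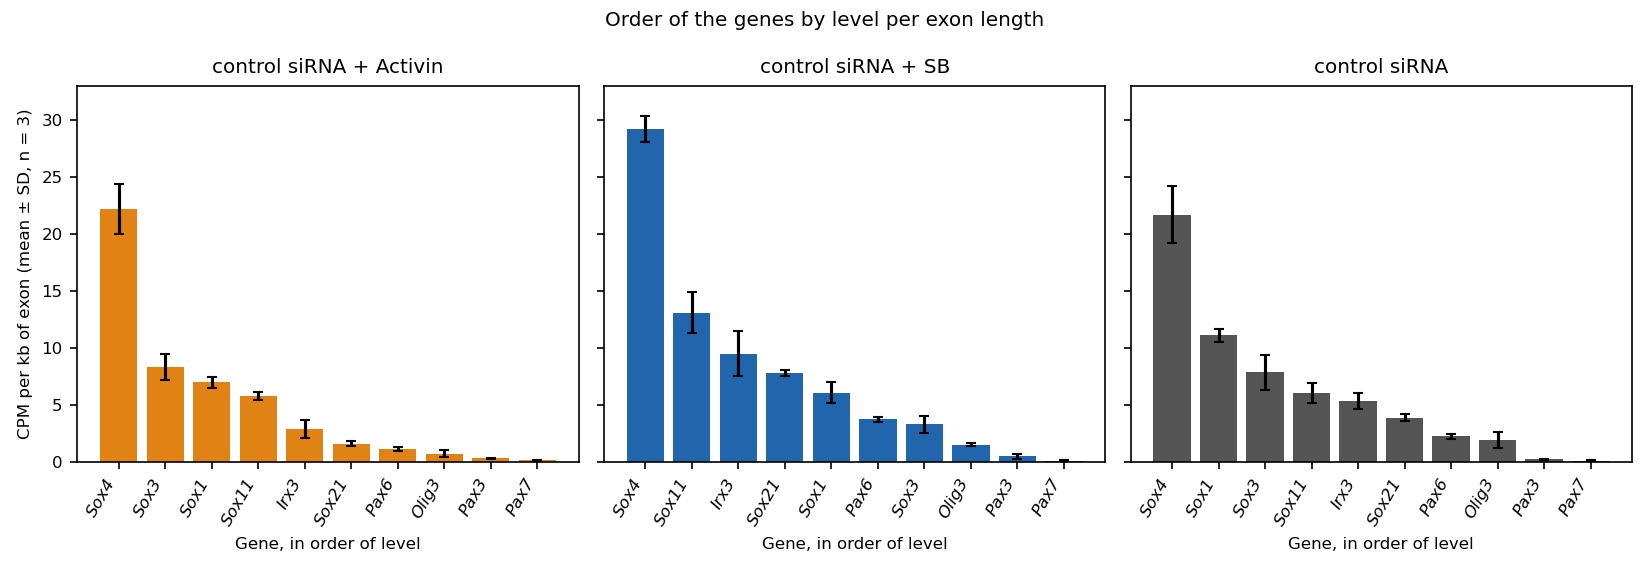
CPM per kb of exon (bars, mean ± SD, n = 3, axis from 0) in control siRNA cells with Activin, with SB and with no addition, each panel ordered by level. Sox4 leads every panel, and Sox1 comes next after it with no addition, at 11.1, but behind Sox11, Irx3 and Sox21 with SB, at 6.03.

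Other genes of the neural plate and tube were taken as a list of 39, of which 32 could be tested. With Activin in control siRNA cells 2 rose, the growth factor gene Fgf15 (1.74 ± 0.22) and the progenitor filament gene Nes (0.85 ± 0.18), and 1 fell, Gsx2, a ventral forebrain factor at 0.0301 CPM with Activin, under the counting limit, and 0.485 CPM with no addition. With SB 9 rose, among them Hesx1 (3.70 ± 0.22) and Lmx1b (4.24 ± 0.35), and 8 fell, among them Fgf15 (-3.25 ± 0.34) and Zic5 (-0.69 ± 0.11). Over all genes in control siRNA cells, 2.95% were called higher and 1.88% lower with Activin, and 11.2% and 11.3% with SB. The same shares apply to the other lists, and they carry no test. The list's median log2 fold change was -0.18 with Activin and 0.24 with SB, against -0.01 and 0 over all genes. Its sum went the other way, at 2320 to 2490 CPM with Activin, 1680 to 1780 CPM with SB and 1800 to 2360 CPM with no addition. Sox2 was its most abundant gene. In Vprbp siRNA cells 3 rose with Activin (Fgf15, Nes and Rax) and 1 fell (Zic1), and in neither siRNA contrast did any pass. Nkx2-2, Olig2 and Dbx1, of the ventral and intermediate tube, did not exceed 0.559, 0.506 and 0.160 CPM in any library.

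Among 14 further Sox genes, 13 were tested, 0 passed with Activin in control siRNA cells, and with SB 4 rose, among them Sox6 (1.68 ± 0.33) and Sox7 (0.92 ± 0.19), and 4 fell, among them Sox10 and Sox2. Among 13 further Pax, Irx and Olig genes, 7 were tested and 0 passed with Activin in control siRNA cells. With SB 2 of these rose, the Iroquois genes Irx4 (1.39 ± 0.30) and Irx5 (0.97 ± 0.24), and 3 fell, among them Olig1 (-1.63 ± 0.32) and Pax8 (-1.53 ± 0.30). Irx2 was at -0.84 ± 0.24 with Activin (edgeR adjusted p = 0.051).

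Of 11 neuronal genes tested, 1 rose with Activin in control siRNA cells, Stmn2 (0.38 ± 0.08), and 2 fell, the zinc finger gene Insm1 (-1.58 ± 0.29) and the neuronal tubulin Tubb3 (-0.61 ± 0.12). With SB 5 fell, among them Stmn2 (-1.30 ± 0.08) and Elavl3 (-0.90 ± 0.10), and 0 rose. The list summed to 259 to 265 CPM with Activin, 175 to 195 CPM with SB and 263 to 307 CPM with no addition. Dcx, a marker of migrating neurons, did not exceed 0.872 CPM in any library. Of 12 pluripotency genes 1 fell with Activin, Zfp42 (-0.36 ± 0.08), while with SB 5 fell, among them Pou5f1 (-0.94 ± 0.06), and 1 rose, Lin28a (0.71 ± 0.08). Their sum was 4800 to 5320 CPM with Activin, 3800 to 4210 CPM with SB and 5120 to 5410 CPM with no addition. Of 10 tested endoderm genes 1 rose with Activin, Ttr (4.30 ± 0.80). Ttr was at 1.60 CPM with Activin and 0.0709 CPM with no addition, the latter under the counting limit. With SB Sox7 rose and Foxa1 fell (-1.33 ± 0.28). The endoderm list summed to 70.4 to 82.5 CPM with Activin, 75.3 to 91.9 CPM with SB and 80 to 85.8 CPM with no addition. How far a shift in the mix of cells entered the values of the 10 genes was not tested.

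Genes with the most similar pattern were ranked by Pearson r of log2 CPM over the 15 libraries among 12136 named genes, a measure in which libraries of a group are not independent. Pax6 was closest to Man2a1 (r = 0.98), Lama1 (0.966) and Zeb1 (0.95), and Sox21 to Greb1l (0.972), Nr6a1 (0.967) and Slc28a1 (0.963). Irx3 was closest to the imprinted gene Mest (0.953), Kirrel and Fam206a, Sox11 to Ttc3 (0.957), Ephb1 and Lrrn2, and Sox3 to Aire (0.944), Adgrg5 and Grk6. Lower values were found for Sox1 with Atg16l1 (0.906), Soga3 and Hoxa3, for Sox4 with Wdr1 (0.899), Pxdn and Col23a1, for Olig3 with the homeobox gene Meis2 (0.898), Rundc3b and Mfsd12, and for Pax3 with St8sia3 (0.804), St8sia2 and Hook3. The Man2a1 level was 79.97 ± 7.44 CPM with Activin, 164.9 ± 11.3 CPM with SB and 112.9 ± 2.00 CPM with no addition. This is the order of Pax6, by likeness to which Man2a1 was picked, so it is no separate result.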

How the data were processed

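RNA of 15 libraries was counted per gene by the authors. The deposited values are raw fragment counts per gene symbol, made with HTSeq 0.6.1p1 on mm10 per the submitters' processing notes. No source used here gives the aligner, annotation or strand setting. Of all fragments, 27.7% to 29.5% were tallied as not aligned, 10.3% to 16.0% as in no counted feature and 0.678% to 0.722% as ambiguous, and 5 tally rows were left out of all totals and fits. The members and gene lists were chosen with earlier results of these data known.

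Counts were filtered with filterByExpr (minimum count 10), scaled by TMM (factors 0.985 to 1.02) and fitted to all 15 libraries, 1 mean per group, with edgeR 4.0.16 quasi-likelihood tests in R 4.3.3 for 7 comparisons. Adjustment was by Benjamini-Hochberg over 14600 genes at 0.05. Values are CPM on scaled library sizes, and list genes are named by up to 4 smallest p-values, similar genes by the 3 highest r among genes averaging 1 or more in log2 CPM. Pou5f1, Nanog and the markers given as near 0 were named after their values were seen. Alternatives were RLE factors, library totals, other filters, a replicate block, DESeq2 1.42.0, fitting just the compared groups and leaving out libraries. The procedure was tested on simulated counts. Replicates of a group differed by more than sampling noise (chi-square per degree of freedom 2.73 to 15.7 over genes). Same-numbered libraries of the Vprbp siRNA and control siRNA groups with no addition deviated together (r = 0.12, 0.20 and 0.37 over genes), from the data alone, so the block is given there. Exon lengths and positions come from GENCODE M21 (GRCm38, the same assembly as mm10).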

Additional observations from a re-analysis of the deposited data

How the results depend on the processing

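Of 935 recomputed fold changes of the members, 908 kept their side of the threshold, 15 lost a call, 12 gained one and 0 reversed a called direction; 33 changed sign where neither value was called. The calls of Sox1, Sox21, Pax6, Sox3, Sox4 and Sox11 named above with Activin or SB held under all alternatives. Leaving out 1 library gave 3 to 4 members called for Activin with control siRNA, 7 to 8 for SB, 6 to 7 for Activin against SB and 4 to 5 for Activin with Vprbp siRNA. Member counts changed in the siRNA contrasts. With Activin, 1 member in place of 0 was called under the replicate block (Sox11, 0.44, adjusted p = 0.044), in the fit of only the groups compared, by DESeq2 and without the 3 libraries that lay apart (Sox3 in these). With no addition, 1 was called without those 3 libraries. The last alternative was chosen after seeing the data, and the causes were not tested. Without SB replicate 3, Activin against SB was also called for Pax3 (-0.92), and Olig3 was called there under the block (-1.13), the compared groups alone (-1.07) and DESeq2 (-1.08). With Activin in control siRNA cells it was called under the block (-1.45).

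Counts over all genes moved more. For the siRNA contrast with no addition the 6 calls became 10 without a filter, 18 under the block, 1 in the compared groups alone, 30 by DESeq2 and 76 without the 3 libraries, and with Activin 15, 51, 68, 76 and 205. Leaving out 1 library gave 2 to 37 and 0 to 21. Activin with control siRNA gave 1058 under the block and 265 to 721 without 1 library, and with Vprbp siRNA 373 in the compared groups alone and 351 to 1167. The difference of responses gave 1 without the 3 libraries. Replicate numbers are not shown to pair the groups other than those with no addition. Pax7, at 2 to 14 counts per library, was too low to be tested, so these data give no call on it.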
